A study of Homo sapiens with 6 samples.

Results

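The transcripts described here encode 9 proteins that are pursued as cell-surface targets for imaging, antibodies or cell therapy in prostate cancer: FOLH1, STEAP1, STEAP2, STEAP3, STEAP4, CD276, PSCA, CEACAM5 and EPCAM. They were chosen by name, and 8 of the 9 were found among the 26819 genes of the deposited expression table, CEACAM5 being not analysed here. The RNA came from C4-2, an established line that grows without androgen and was derived from the human prostate cancer line LNCaP, and every library carries the Tet-O-YAP5SA transgene, a doxycycline-inducible form of the coactivator YAP1 that escapes inhibition by the LATS kinases. Doxycycline had been added 24 hours earlier for 3 libraries (Dox), and 3 came from cells without it (Ctrl). The medium was RPMI-1640 and held 10% serum. The labels state a dose of 0.2 mg/ml, whose unit is in doubt. No library came from cells that lack the transgene, so an effect of the drug and an effect of YAP5SA cannot be told apart, and the labels do not say whether the line is 1 clone. They also do not say whether the replicates were separate cultures, so p-values measure the spread among these 6 libraries alone, and that spread may be technical.

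YAP1 is held inactive in the cytoplasm by the Hippo kinase cascade. When it is active it enters the nucleus and works with TEAD transcription factors at enhancers and promoters. In prostate cancer several of the surface targets are of interest because tumour cells can carry them at a higher density than most normal tissues. Some also respond to androgen, which restrains FOLH1 and raises STEAP4. What was measured here is RNA, and the amount of protein at the cell surface was not measured.

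Levels are in TPM, a share of all transcripts in a library that takes gene length into account, so they can be compared between genes. The order of genes within a library depends on the lengths used. Reads recovered from the values came to between 24914226 and 29207519 per Dox library and between 27546897 and 28759617 per Ctrl library. The induction was seen in every Dox library: YAP1 was at 269 ± 6.92 TPM in Dox and 56.8 ± 3.72 TPM in Ctrl (SD, n = 3 each). The luminal markers KRT8, KRT18, KLK3 and HOXB13 were all present, summing to between 3323 and 3383 TPM in Dox and between 4563 and 4656 TPM in Ctrl. They did not move together. KRT8 (mean 582 TPM in Dox, 473 in Ctrl) and KRT18 (716 and 523) were called higher. KLK3 (1795 and 3297) and HOXB13 (255 and 318) were called lower. Of 5 stromal, endothelial and immune markers listed, all 5 stayed under 1 TPM in every library, and their sum lay between 0.550 and 0.692 TPM in Dox and between 0.273 and 0.422 TPM in Ctrl. The 5 basal markers summed to between 2.55 and 2.87 TPM in Dox and between 2.16 and 2.58 TPM in Ctrl. The 5 neuroendocrine markers summed to between 85.5 and 95.5 TPM in Dox and between 99.5 and 117 TPM in Ctrl, nearly all of it from ENO2, with CHGA, INSM1 and NCAM1 under 1 TPM throughout.

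Among the surface targets, STEAP2, STEAP1 and CD276 rose with doxycycline, STEAP3 fell, and FOLH1, PSCA and EPCAM did not pass the test. The test was limma on log2(TPM + 1) over all 14833 genes that reached 1 TPM in 3 or more libraries, with p adjusted after Benjamini and Hochberg and called under 0.05. Of the 7 targets that passed the filter, 3 were called higher, where 35.9% of all tested genes were, and 1 was called lower, where 17.8% were. In either direction 4 of 7 were called, beside 53.7% of all tested genes, so the share of targets that changed was near the background. The Dox and Ctrl libraries did not overlap for 4 of the 7, beside 61.9% of all tested genes. The median log2 fold change of the 7 was 0.05, and that of all tested genes was 0.10. Small changes are read against that 0.10, because rescaling the libraries to equal median ratios moves the median of all tested genes by -0.10 (less for genes of low level). After that rescaling 1 of the 7 targets was called higher (26.7% of all tested genes) and 3 lower (26.6%). After quantile normalization it was 3 higher (23.8%; FOLH1, STEAP1 and STEAP2) and 3 lower (29.3%). With voom, a weighted limma fit, on the recovered reads it was 1 higher (28.9%) and 2 lower (28.3%). STEAP2 and STEAP3 kept their calls under each of these scalings.

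**Figure D1:**
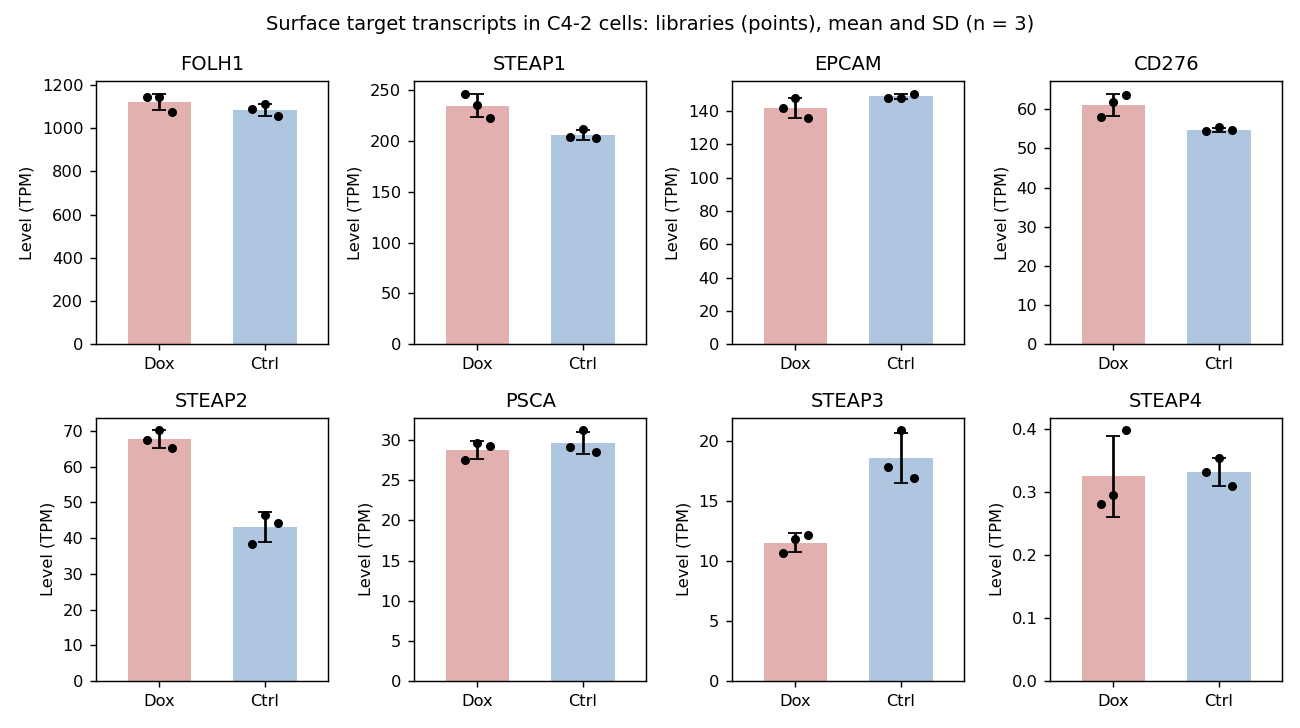
Level in TPM (y axis, from 0, a different range in each panel) of the 8 targets in Dox and Ctrl libraries, ordered by their Ctrl mean. Bars are means, error bars SD and points single libraries (n = 3 each); the points of the groups are apart for STEAP1, CD276, STEAP2 and STEAP3 and overlap for FOLH1, EPCAM, PSCA and STEAP4.

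The levels of the targets spanned more than 3 orders of magnitude. FOLH1 stood at rank 105 of the 14833 tested genes by mean level in Dox and at rank 133 in Ctrl. It alone made up between 67.0% and 67.4% of the summed TPM of the 8 targets in Dox libraries and between 67.9% and 68.8% in Ctrl libraries. That sum lay between 1606 and 1701 TPM in Dox and between 1552 and 1624 TPM in Ctrl, with overlap. In both groups FOLH1 was followed by STEAP1 and then EPCAM, with no overlap between the libraries of these neighbours. The next place changed hands. In Dox, STEAP2 (65.2 to 70.2 TPM) lay above CD276 (58.1 to 63.7 TPM), while in Ctrl, STEAP2 (38.4 to 46.6 TPM) lay below CD276 (54.4 to 55.4 TPM), in each case without overlap. PSCA, STEAP3 and STEAP4 followed in that order in both groups, each apart from its neighbours.

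The STEAP family gave the largest changes, and its members went in opposite directions. STEAP proteins are membrane proteins with a heme-binding transmembrane core, and STEAP2, STEAP3 and STEAP4 use it to reduce iron and copper ions with electrons from NADPH. STEAP1 lacks the NADPH-binding part and is the member pursued most in prostate cancer. STEAP1, STEAP2 and STEAP4 lie on chromosome 7 and STEAP3 on chromosome 2.

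Promoter sequences from RefSeq (GRCh38.p14) were at hand for 5 targets, namely STEAP1, STEAP2, STEAP3, STEAP4 and CD276. Those of the 3 STEAP genes called on the deposited TPM are given because these neighbours and relatives differ in their response. The call of STEAP1 depends on the scaling. Each runs 5′ to 3′ on the gene's strand from 250 bases before the start site to 50 bases after it, and capitals mark the 50 bases from the start site on.

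STEAP2, chr7:90211490-90211789, plus strand: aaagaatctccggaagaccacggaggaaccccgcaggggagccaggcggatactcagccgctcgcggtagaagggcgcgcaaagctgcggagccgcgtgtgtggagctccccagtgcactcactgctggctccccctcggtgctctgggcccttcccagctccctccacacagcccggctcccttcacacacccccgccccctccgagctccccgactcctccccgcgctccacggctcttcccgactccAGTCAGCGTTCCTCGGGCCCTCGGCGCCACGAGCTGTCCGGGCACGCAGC

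STEAP1, chr7:90154219-90154518, plus strand: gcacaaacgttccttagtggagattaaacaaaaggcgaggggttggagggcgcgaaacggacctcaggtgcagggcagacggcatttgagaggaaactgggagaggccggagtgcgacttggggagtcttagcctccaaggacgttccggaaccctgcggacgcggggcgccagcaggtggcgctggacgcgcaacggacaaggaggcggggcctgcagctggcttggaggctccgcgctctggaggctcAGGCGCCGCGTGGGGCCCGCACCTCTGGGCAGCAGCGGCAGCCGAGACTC

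STEAP3, chr2:119223584-119223883, plus strand: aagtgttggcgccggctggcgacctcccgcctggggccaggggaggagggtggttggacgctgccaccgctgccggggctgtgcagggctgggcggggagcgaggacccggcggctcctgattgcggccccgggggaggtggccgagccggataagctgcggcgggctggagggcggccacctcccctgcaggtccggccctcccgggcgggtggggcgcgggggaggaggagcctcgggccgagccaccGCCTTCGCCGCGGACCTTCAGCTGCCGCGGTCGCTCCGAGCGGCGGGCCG

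The 3 stretches are rich in G and C, which make up 70.3% of the letters for STEAP2, 66.7% for STEAP1 and 78.7% for STEAP3, against a median of 58.7% over all 35116 promoters of the same length. The window of the second annotated STEAP2 start, not shown, holds 33.7%. The hexamer GGAATG, the core that TEAD factors bind, was searched on both strands. It is in none of the 7 windows of the 5 targets (STEAP2 and CD276 have a second annotated start), and it is present in 14.0% of all promoters. This says only that these letters are not in these windows.

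STEAP2 (ENSG00000157214.9), a metalloreductase of the plasma membrane and endosomes, was at 67.6, 70.2 and 65.2 TPM in Dox libraries 1 to 3, against 38.4, 46.6 and 44.2 TPM in Ctrl libraries 1 to 3. Every Dox library lay above every Ctrl library, and the lowest value was that of Ctrl 1. The means were 67.7 ± 2.5 TPM in Dox and 43.1 ± 4.22 TPM in Ctrl (SD, n = 3 each), a ratio of 1.57. On the log2 scale STEAP2 differed by 0.64 ± 0.07 (SE, limma adjusted p = 0.00019), a difference higher than that of 90.6% of all tested genes. Each value rests on 2999 to 5069 recovered reads.

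STEAP1 (ENSG00000164647.4) was at 247, 236 and 223 TPM in Dox libraries 1 to 3, against 204, 212 and 203 TPM in Ctrl libraries 1 to 3. The groups did not overlap, but the gap between Dox 3 and Ctrl 2 was small. Means of 235 ± 11.8 TPM in Dox and 206 ± 5.23 TPM in Ctrl (SD, n = 3 each) gave a ratio of 1.14 and a log2 fold change of 0.19 ± 0.04 (SE, limma adjusted p = 0.0070). After median-ratio rescaling the log2 fold change of STEAP1 was 0.078 (limma adjusted p = 0.12), and voom on the recovered reads gave 0.077 (adjusted p = 0.13), so the call depends on the scaling. STEAP1 shares 21.4% of its 50-base words with transcripts of STEAP1B, a close relative, and reads from such stretches cannot be assigned with certainty. STEAP1B itself was at 0.237 ± 0.155 TPM in Dox and 0.483 ± 0.0744 TPM in Ctrl (SD, n = 3 each), too low for the filter.

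STEAP3 (ENSG00000115107.15), a ferrireductase known from the endosomes of red cell precursors, was the member that fell. It was at 10.6, 11.8 and 12.1 TPM in Dox libraries 1 to 3, against 17.8, 20.9 and 16.9 TPM in Ctrl libraries 1 to 3. Every Dox library lay below every Ctrl library. The means were 11.5 ± 0.792 TPM in Dox and 18.5 ± 2.09 TPM in Ctrl (SD, n = 3 each), 1.61-fold lower in Dox. The log2 fold change of STEAP3 was -0.64 ± 0.09 (SE, limma adjusted p = 0.00058), and only 3.44% of all tested genes had a lower one. Exons of the antisense gene STEAP3-AS1 overlap it in GENCODE 29. The kit marks strand, but whether the counting used it is not stated, so reads of these genes may be mixed.

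STEAP4 (ENSG00000127954.8), a metalloreductase best known from fat tissue and inflammation, was barely detected. It was at 0.281, 0.296 and 0.398 TPM in Dox libraries 1 to 3, against 0.332, 0.353 and 0.309 TPM in Ctrl libraries 1 to 3, from 12 to 20 recovered reads per library. The groups overlapped, no library reached the 1 TPM of the filter, and STEAP4 was not tested.

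Ratios within a library do not change when a library is multiplied by a factor, as in median-ratio rescaling, though quantile normalization can change them. Here transcripts per transcript means a ratio of TPM, whose size depends on the length taken for each gene. That length is the same in all libraries, so it does not enter the change between groups. There were 0.274 to 0.298 STEAP2 transcripts per STEAP1 transcript in Dox libraries and 0.188 to 0.220 in Ctrl libraries, a difference in log2 ratio of 0.47. For STEAP3 over STEAP1 the ratio was 0.0431 to 0.0544 in Dox and 0.0832 to 0.0984 in Ctrl, a difference of -0.87 on the log2 scale. Neither pair of ranges overlapped. The exact two-sided permutation test over libraries gave p = 0.1 for each, the smallest it allows with 3 against 3, and adjusted p = 0.133 over the 4 ratios compared, so the design cannot reach the threshold for a ratio.

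FOLH1 (ENSG00000086205.12), prostate-specific membrane antigen, is a zinc peptidase that removes glutamate from folates and from a neuropeptide, and it is the target of PSMA imaging and radioligand therapy. It was at 1142, 1144 and 1076 TPM in Dox libraries 1 to 3, against 1087, 1110 and 1054 TPM in Ctrl libraries 1 to 3. The groups overlapped, since Dox 3 lay below Ctrl 1 and Ctrl 2. With 32706 to 37254 recovered reads per library, counting error was small. FOLH1 averaged 1121 ± 38.7 TPM in Dox and 1083 ± 27.9 TPM in Ctrl (SD, n = 3 each), with a log2 fold change of 0.05 ± 0.03 (SE, limma adjusted p = 0.27). The 95% interval of that change corresponds to 0.978-fold to 1.09-fold. The sign depends on the scaling, with -0.061 after median-ratio rescaling (limma adjusted p = 0.21) and -0.062 with voom on recovered reads (adjusted p = 0.17). Quantile normalization gave 0.23 and a call (limma adjusted p = 0.00051). FOLH1 on chromosome 11 shares 28.5% of its 50-base words with other transcripts, chiefly those of its copy FOLH1B, which was listed at 0.544 ± 0.158 TPM in Dox and 0.580 ± 0.0423 TPM in Ctrl (SD, n = 3 each).

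The number of FOLH1 transcripts per STEAP1 transcript lay lower in each Dox library than in any Ctrl library. It was 4.63 to 4.85 in Dox libraries and 5.20 to 5.33 in Ctrl libraries, without overlap, a difference in log2 ratio of -0.14 (exact permutation p = 0.1, the smallest possible; adjusted p = 0.133 over 4 ratios). Quantile normalization turned this direction, with log2 fold changes of 0.23 for FOLH1 and 0.13 for STEAP1.

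**Figure D2:**
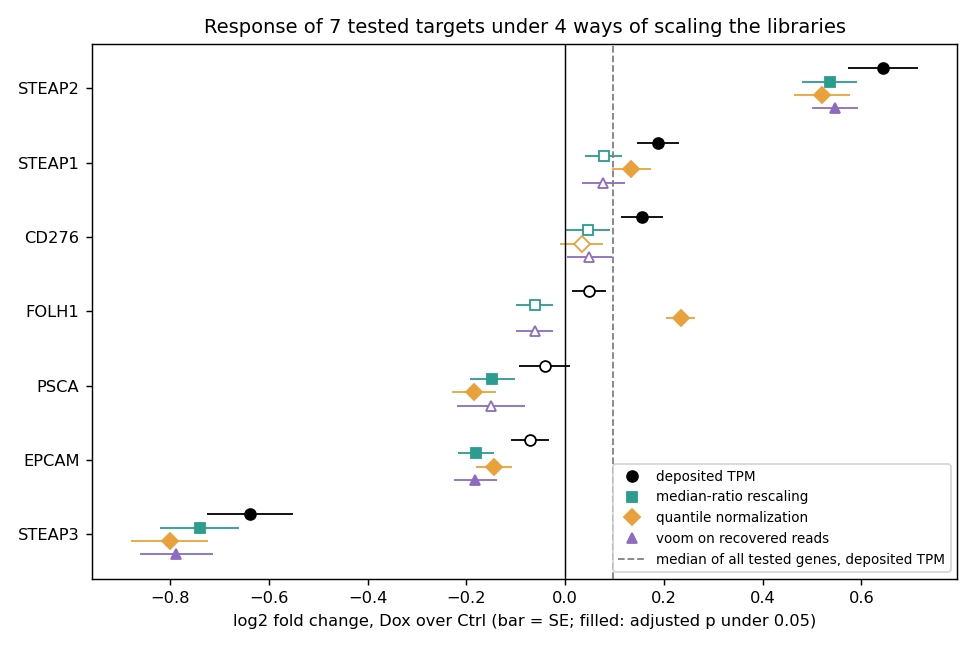
The log2 fold change of Dox over Ctrl (x axis) of the 7 tested targets, one row each, under 4 ways of scaling the libraries, with SE as bars (n = 3 each) and filled symbols for an adjusted p under 0.05. STEAP2 stays near 0.5 to 0.6 and STEAP3 near -0.6 to -0.8 in each, FOLH1 changes sign, and the calls of STEAP1, CD276, PSCA and EPCAM depend on the scaling; the dashed line is the median of all tested genes on the deposited scale, 0.10.

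CD276 (ENSG00000103855.13) on chromosome 15, also named B7-H3, is an immune checkpoint protein of the B7 family and a target of antibody-drug conjugates. It was at 58.1, 61.8 and 63.7 TPM in Dox libraries 1 to 3, against 54.4, 55.4 and 54.7 TPM in Ctrl libraries 1 to 3. Every Dox library lay above every Ctrl library, though Dox 1 was close to them. The means were 61.2 ± 2.82 TPM in Dox and 54.8 ± 0.513 TPM in Ctrl (SD, n = 3 each), a ratio of 1.12. The log2 fold change of CD276 was 0.16 ± 0.04 (SE, limma adjusted p = 0.016). The call is lost without Dox replicate 2 (limma adjusted p = 0.054), Dox replicate 3 (0.0502) or Ctrl replicate 3 (0.053). It is also lost after median-ratio rescaling (log2 fold change 0.047, limma adjusted p = 0.40), after quantile normalization (0.034, adjusted p = 0.54) and with voom on recovered reads (0.049, adjusted p = 0.37). There were 0.0509 to 0.0592 CD276 transcripts per FOLH1 transcript in Dox libraries and 0.0499 to 0.0519 in Ctrl libraries. These ranges overlapped (difference in log2 ratio 0.11, exact permutation p = 0.2, adjusted p = 0.2 over 4 ratios), and quantile normalization turned the direction, with log2 fold changes of 0.034 for CD276 and 0.23 for FOLH1.

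Around CD276, other B7 family genes were low. Of 9 fixed in the list, 6 were listed and 5 passed the filter, of which 2 rose, 1 fell and 2 did not pass, with a median log2 fold change of 0.12 beside 0.10 over all tested genes. For this list and those below, the shares over all tested genes were 35.9% called higher and 17.8% called lower. C10orf54 (VSIR, the checkpoint protein VISTA) rose to 5.51 ± 0.182 TPM in Dox, against 0.172 ± 0.0583 TPM in Ctrl (log2 fold change 2.47 ± 0.10, SE). VTCN1, which encodes B7-H4, rose to 1.49 ± 0.209 TPM in Dox, against 0.0905 ± 0.0245 TPM in Ctrl. Both passed the filter only through their Dox libraries, so they could be tested only because they were high there. They are the 2 rises counted above, and that count is no support for a rise of the family. NCR3LG1, the ligand B7-H6 of natural killer cells, fell to 1.92 ± 0.128 TPM in Dox, against 2.94 ± 0.183 TPM in Ctrl. CD274, which encodes PD-L1, was at 1.02 ± 0.244 TPM in Dox and 1.45 ± 0.0715 TPM in Ctrl and did not pass (limma adjusted p = 0.097).

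PSCA (ENSG00000167653.4), prostate stem cell antigen, is a small protein of the LY6 family held in the membrane by a GPI anchor. It was at 27.5, 29.6 and 29.3 TPM in Dox libraries 1 to 3, against 29.2, 31.2 and 28.6 TPM in Ctrl libraries 1 to 3. The groups overlapped. It averaged 28.8 ± 1.12 TPM in Dox and 29.7 ± 1.40 TPM in Ctrl (SD, n = 3 each), with a log2 fold change of -0.04 ± 0.05 (SE, limma adjusted p = 0.54) and a 95% interval of 0.894-fold to 1.06-fold. PSCA was called lower after median-ratio rescaling (-0.15, limma adjusted p = 0.028) and after quantile normalization (-0.18, 0.010). With voom on recovered reads it was not called (-0.15, adjusted p = 0.067). Its exons overlap those of JRK on the opposite strand in GENCODE 29, with the same doubt about strand as for STEAP3.

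Of 14 other LY6/uPAR genes, 11 were listed and 7 tested; 4 rose, 1 fell and 2 did not pass, with a median log2 fold change of 0.19 (0.10 over all tested genes). CD59, which shields cells from complement, rose 1.94-fold to 121 ± 5.68 TPM in Dox, against 62.4 ± 2.24 TPM in Ctrl. LYPD6, a modulator of Wnt signalling, rose 2.27-fold to 6.32 ± 0.508 TPM in Dox, against 2.79 ± 0.393 TPM in Ctrl, and its neighbour LYPD6B rose 2.04-fold. LY6E rose 1.15-fold, but not after median-ratio rescaling (limma adjusted p = 0.093). LYPD3, an adhesion protein of stratified epithelium, fell to 13.5 ± 0.470 TPM in Dox, against 19.2 ± 1.23 TPM in Ctrl.

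EPCAM (ENSG00000119888.6) on chromosome 2 is a homophilic adhesion molecule of epithelial cells and the antigen most used to capture circulating tumour cells. It was at 142, 148 and 136 TPM in Dox libraries 1 to 3, against 148, 148 and 150 TPM in Ctrl libraries 1 to 3. The groups just overlapped, because Dox 2 reached the level of the lower Ctrl libraries. It averaged 142 ± 6.13 TPM in Dox and 149 ± 1.48 TPM in Ctrl (SD, n = 3 each), with a log2 fold change of -0.07 ± 0.04 (SE, limma adjusted p = 0.15) and a 95% interval of 0.896-fold to 1.01-fold. EPCAM was called lower after median-ratio rescaling (-0.18, limma adjusted p = 0.0048), after quantile normalization (-0.14, 0.014) and with voom on recovered reads (-0.18, 0.00076).

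Of 10 genes fixed as partners and cleavage enzymes of EPCAM, 7 were tested. Of these 3 rose, 1 fell and 3 did not pass, with a median log2 fold change of 0.14 (0.10 over all tested genes). The sheddase ADAM10 rose 1.90-fold to 120 ± 2.31 TPM in Dox, against 62.9 ± 3.66 TPM in Ctrl, and CTNNB1, which encodes beta-catenin, rose 1.36-fold. The tetraspanin CD9 rose 1.14-fold to 1322 ± 26.1 TPM in Dox, against 1156 ± 25.4 TPM in Ctrl, a call lost after median-ratio rescaling (limma adjusted p = 0.15). CLDN7, a claudin that binds EPCAM, fell 1.15-fold to 521 ± 13.7 TPM in Dox, against 597 ± 8.17 TPM in Ctrl, and its exons overlap those of ELP5 on the opposite strand and of AC003688.1 on the same strand in GENCODE 29.

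CEACAM5, carcinoembryonic antigen, was not analysed here. Of 11 relatives, 5 were listed, and CEACAM1, CEACAM16, CEACAM20 and CEACAM21 were too low to test. CEACAM19 alone was tested and rose 1.54-fold to 3.17 ± 0.233 TPM in Dox, against 2.07 ± 0.119 TPM in Ctrl (limma adjusted p = 0.0050). Its exons overlap those of PVR on the same strand in GENCODE 29, so reads of the 2 genes may be mixed.

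**Figure D3:**
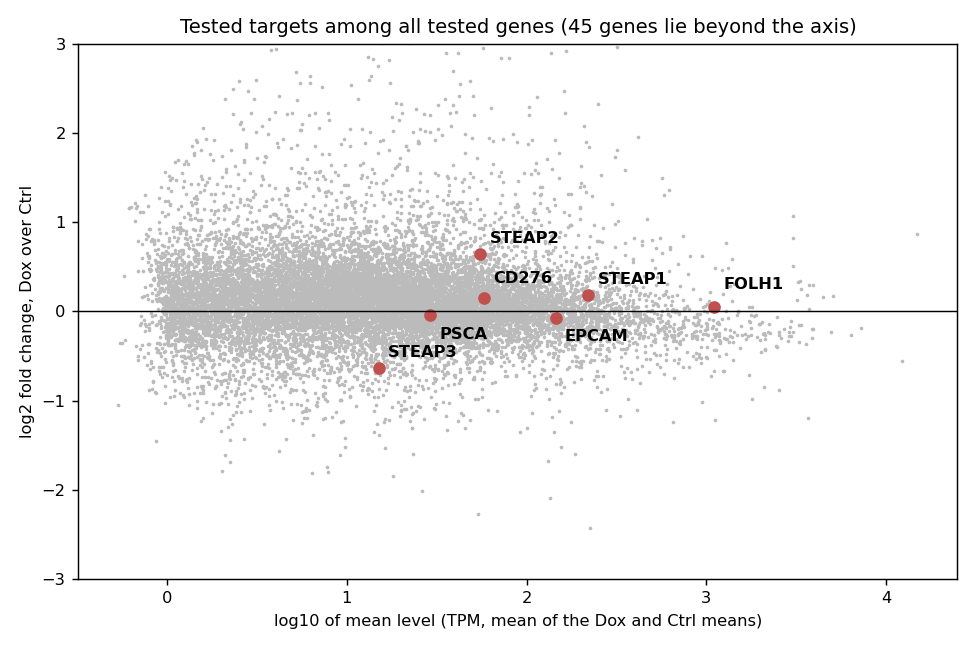
The log2 fold change of Dox over Ctrl (y axis) against the log10 of the mean level in TPM (x axis) of all 14833 tested genes (grey) and the 7 tested targets (red, named); 45 genes lie beyond the y axis. STEAP2 (0.64) and STEAP3 (-0.64) lie toward the upper and lower edge of the cloud, and FOLH1 (0.05) is at its far right near 0.

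Genes of iron and copper transport, the ions that STEAP proteins reduce, were called in 6 of 7 tested cases, 5 up and 1 down. Over all tested genes 53.7% were called, 35.9% up and 17.8% down. The median log2 fold change of the 7 was 0.56 (0.10 over all tested genes). TFRC, the transferrin receptor, rose 1.77-fold to 94.7 ± 4.69 TPM in Dox, against 53.6 ± 8.52 TPM in Ctrl. The endosomal iron transporter SLC11A2 rose 1.58-fold to 27 ± 1.06 TPM in Dox, against 17.1 ± 1.37 TPM in Ctrl. SLC39A8, a carrier of zinc, manganese and iron, rose 1.48-fold to 264 ± 16.1 TPM in Dox, against 178 ± 5.26 TPM in Ctrl. The ferrireductase CYBRD1 rose to 1.31 ± 0.0690 TPM in Dox, against 0.509 ± 0.0877 TPM in Ctrl. It passed the filter only through its Dox libraries and is among the 5 rises counted. SLC40A1, the iron exporter ferroportin, was the other gene that rose (log2 fold change 0.49, limma adjusted p = 0.0046). SLC31A1, the main copper importer, fell 1.26-fold to 97.9 ± 2.64 TPM in Dox, against 123 ± 1.10 TPM in Ctrl. These counts were 5 up and 2 down after median-ratio rescaling, beside 26.7% up and 26.6% down over all tested genes.

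Of 10 relatives of FOLH1 and genes of folate handling, 7 were tested. Of these 2 rose and 2 fell, with a median log2 fold change of -0.10 (0.10 over all tested genes). After median-ratio rescaling 2 rose and 4 fell, beside 26.7% higher and 26.6% lower over all tested genes. FOLR1, a folate receptor, was at 2.07 ± 0.637 TPM in Dox and 0.0750 ± 0.0753 TPM in Ctrl, a log2 fold change of 1.5. It passed the filter only through its Dox libraries and is among the 2 rises counted. FPGS, which adds glutamates to folate, rose 1.19-fold, a call lost after quantile normalization (limma adjusted p = 0.055). TFR2, a second transferrin receptor related to FOLH1 in sequence, fell 1.59-fold to 3.41 ± 0.609 TPM in Dox, against 5.43 ± 0.333 TPM in Ctrl. The call of NAALADL2 (log2 fold change -0.27) is weaker. With limma, NAALADL2 is lost without the filter (adjusted p = 0.052), without Dox replicate 1 (adjusted p = 0.064), Ctrl replicate 2 (0.060) or Ctrl replicate 3 (0.053).

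The targets were also set beside 27 other surface antigens pursued in prostate cancer. Of these, 22 were tested, of which 10 rose, 9 fell and 3 did not pass. Over all tested genes 35.9% were called higher and 17.8% lower. The median log2 fold change of the 22 was 0.10, close to the 0.10 of all tested genes. On the log2(TPM + 1) scale the largest rises were those of L1CAM, ALCAM, TMPRSS2 and ERBB2, an order that differs by the ratio of mean TPM. The neural adhesion molecule L1CAM rose 4.95-fold to 3.53 ± 0.169 TPM in Dox, against 0.713 ± 0.114 TPM in Ctrl. It passed the filter only through its Dox libraries and is among the 10 rises counted. Its exons overlap those of other genes in GENCODE 29. The adhesion molecule ALCAM rose 2.66-fold to 173 ± 8.95 TPM in Dox, against 65.3 ± 2.23 TPM in Ctrl. The serine protease TMPRSS2 rose 2.58-fold. ERBB2 rose 2.54-fold to 158 ± 6.36 TPM in Dox, against 62.1 ± 2.97 TPM in Ctrl. Its exons overlap those of MIEN1 and PGAP3 on the opposite strand in GENCODE 29. The largest falls were those of SLC45A3 (prostein), CXCR4, HPN and TRPM8. SLC45A3 fell 2.23-fold to 66.2 ± 3.74 TPM in Dox, against 147 ± 6.57 TPM in Ctrl. The chemokine receptor CXCR4 fell 2.11-fold and the serine protease hepsin (HPN) 1.76-fold. The cold-sensing channel TRPM8 fell 1.61-fold to 23.3 ± 1.25 TPM in Dox, against 37.5 ± 2.28 TPM in Ctrl.

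**Figure D4:**
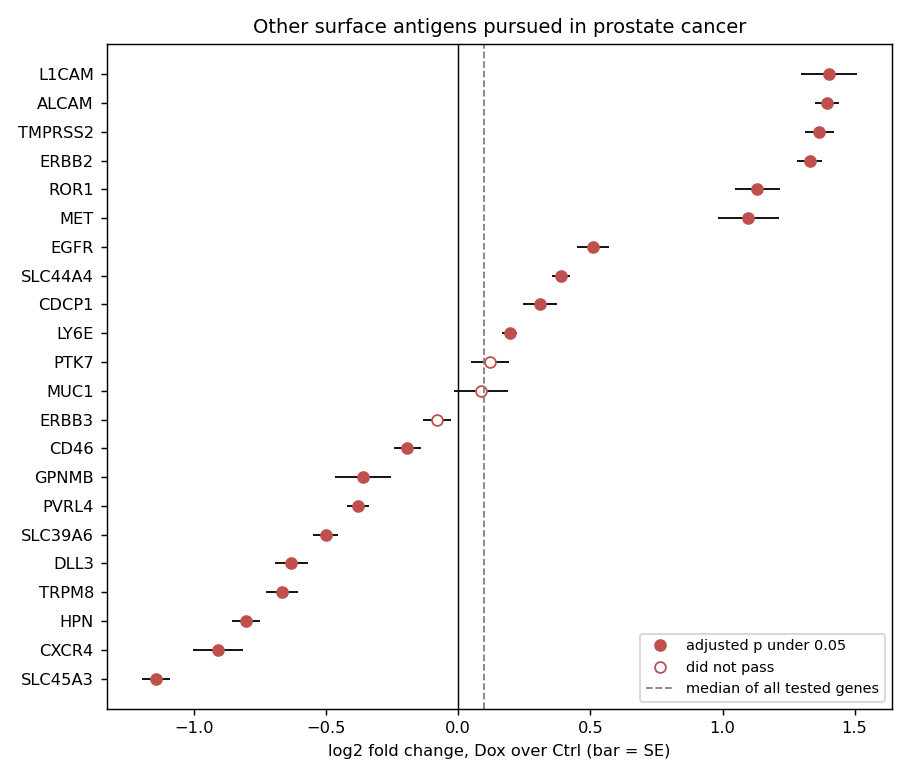
The log2 fold change of Dox over Ctrl (x axis, bars are SE, n = 3 each) of 22 other surface antigens, ordered by size, with filled points for an adjusted p under 0.05. They run from 1.40 for L1CAM to -1.14 for SLC45A3, with 10 called higher and 9 lower; the dashed line is the median of all tested genes, 0.10.

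Genes known to respond to androgen were looked at because FOLH1 and STEAP4 do so too. Of 7 such genes tested, 7 were called, beside 53.7% of all tested genes. KLK2, FKBP5, SLC45A3, KLK3 and KLK4 fell, and TMPRSS2 and NDRG1 rose, with a median log2 fold change of -0.88 (0.10 over all tested genes). The kallikrein KLK2 had a log2 fold change of -1.36 and the co-chaperone FKBP5 one of -1.30. NDRG1, a stress-responsive gene also raised by androgen, rose 1.47-fold. The part of these changes in those of the targets was not tested.

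By Pearson correlation of log2(TPM + 1) over the 6 libraries, the genes most like STEAP2 among 7984 with a mean of at least 10 TPM were ZXDB, PHF2 and SNRNP35 (r of 0.999 or higher when rounded). Those most like STEAP3 were VARS, TSPAN1 and CCDC47, and those most like STEAP1 were IDH1, PSMC2 and RPP38. For CD276 they were PLEKHB1, ASL and RNH1, for EPCAM AFTPH, GORASP2 and CHPT1, for PSCA EMC1, GNL1 and ALYREF, and for FOLH1 PPP1R35, ZCCHC10 and GPANK1. No other target was among them. These values describe 6 libraries in 2 groups, whose difference enters every r.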

How the data were processed

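Stranded mRNA libraries (TruSeq) were sequenced from 3 Dox and 3 Ctrl samples, grouped and numbered by their titles. Per the submitters' processing notes, FastQC 0.11.2, STAR 2.5.3a, featureCounts and edgeR were used and the build was hg19. The deposited table holds TPM made by the authors, per the file headers. Each library sums to 1000000, so what 1 gene gains the rest must lose. The annotation release is not stated.

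The 9 targets and the 13 comparison lists were chosen with earlier results of these data known. The test was limma 3.58.1 (R 4.3.3; empirical Bayes with a trend of variance on mean), two-sided, on log2(TPM + 1), for genes that reached 1 TPM in 3 or more libraries. It was also run on simulated data in which few genes changed and no shift between libraries was put in. That run cannot judge calls that depend on how libraries are rescaled. Fold changes on the log2(TPM + 1) scale understate those of low genes, and fold values without "log2" are ratios of mean TPM. Whole reads were recovered from the TPM values within 0.01 reads for 100% of the 14833 tested genes. Gene lengths came from GENCODE 29 for 9115 of them, and the other 5718 took the smallest length that gave whole reads. On a gene of 1 kb, 3 reads are 0.341 to 0.401 TPM in Dox and 0.335 to 0.356 TPM in Ctrl, a limit for counting error only. No replicate pair was close enough to be merged (chi-square per gene 2.55 to 4.99). Named list genes are up to 4 called in each direction with the largest change. CD274, SLC40A1, KLK3, KLK4, the untested relatives and single markers were named after their values were seen. Alternatives were a pseudocount of 0.1, no filter on low values, a filter at a mean of 5 TPM, rescaling by median ratios, quantile normalization, removal of mitochondrial transcripts, no trend, leaving out each library in turn, and the replicate number as a block. Voom on recovered reads, with library sizes from median ratios, was chosen after seeing the data and took the place of a planned voom with TMM, which was not run. Overlaps, chromosomes and 50-base words came from GENCODE 29 (GRCh38), and coordinates are given only for RefSeq promoters. Overlaps on the opposite strand are not named for every gene. Some listed genes, 1 ratio and 1 motif are not reported here. Figures were drawn with matplotlib 3.10.9.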

Additional observations from a re-analysis of the deposited data

How the results depend on the processing

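Of the targets, STEAP2 and STEAP3 kept their direction and their call under all 15 alternatives run, with log2 fold changes of 0.52 to 0.70 for STEAP2 and -0.80 to -0.55 for STEAP3. Median-ratio rescaling left 1 target higher and 3 lower, quantile normalization had 3 lower, and voom on recovered reads had 1 higher and 2 lower. Log2 fold changes with median-ratio rescaling were -0.061 for FOLH1, 0.078 for STEAP1, 0.047 for CD276, -0.15 for PSCA and -0.18 for EPCAM. Voom on recovered reads gave -0.062 for FOLH1, 0.077 for STEAP1, 0.049 for CD276, -0.15 for PSCA and -0.18 for EPCAM. Quantile normalization gave 0.23 for FOLH1, 0.034 for CD276, -0.18 for PSCA and -0.14 for EPCAM. Over all genes, 3536 were higher and 4348 lower after quantile normalization, and 4196 lower with voom, against 5319 higher and 2640 lower as deposited. Of the calls on the deposited scale 66.8% were upward, against 50.1% with median ratios, 50.5% with voom and 44.9% with quantile normalization, which moved the median log2 fold change of all genes by -0.13. Voom with TMM, as planned, was not run. Leaving out 1 library gave CD276 values of 0.13 to 0.19. With a mean of at least 5 TPM, the relatives of FOLH1 and folate genes had 2 calls, the B7 list 0 and the CEACAM list 0, because fewer genes were tested. The replicate numbers did not pair the libraries (correlations of deviations -0.0085, 0.063 and 0.0035). The fit with the replicate block changed no call of a target and gave 5223 genes higher and 2618 lower; for the ratios between targets the block gave an exact permutation p of 0.25, the smallest it allows. STEAP4, at 12 to 20 reads, and the ratios, with 3 libraries a group, are limited by depth and number. No alternative gave a value for CEACAM5 or for the ratio of STEAP4 to STEAP2.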
